A study of Mus musculus with 6 samples.

Results

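Receptors for the constant part of antibodies were examined in mouse hematopoietic progenitors transduced with EVI1 or with a control vector. The set comprised the 4 mouse receptors for immunoglobulin G on leukocytes (Fcgr1, Fcgr2b, Fcgr3 and Fcgr4), the low-affinity receptor for immunoglobulin E (Fcer2a, CD23) and the neonatal Fc receptor (Fcgrt). They were taken by gene symbol, with their differences between the 2 constructs already known from earlier work on these arrays. Their values are therefore given as a description, without a test. Of the 6 genes 5 were matched, each to 1 probe set, among 19937 genes measured; Fcgrt is named only. The study compared 3 arrays labelled EVI1 with 3 labelled EGFP, all from C57BL6 cells depleted of mature lineage markers (Lin-) that carry the Rosa26rtTA transactivator. EVI1, a zinc finger transcription factor encoded at the Mecom locus, was delivered on a lentiviral vector under a tetracycline-responsive promoter together with EGFP, and the control vector carried EGFP under the same kind of promoter. Cells of both groups were grown without serum in interleukin 3 at 20 ng/ml together with interleukin 11, stem cell factor and Flt3 ligand, each at 50 ng/ml. They were transduced 24 h after isolation and received 1 µg/ml doxycycline 24 h later. EGFP-positive cells were sorted, and RNA was taken 20 h after doxycycline in the series description and 24 h after it in the sample descriptions. Neither the age nor the number of mice is stated, and nothing says whether replicates were separate cultures, so p-values measure only the spread between these arrays.

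Fc receptors let leukocytes respond to antibody-coated targets. Fcgr1, which binds monomeric immunoglobulin G with high affinity, and Fcgr3 and Fcgr4, which bind immune complexes, are activating: they signal through the common gamma chain (Fcer1g), whose cytoplasmic ITAM motif recruits the kinase Syk. Fcgr2b is the inhibitory counterpart, with an ITIM motif that recruits the lipid phosphatase SHIP1 (Inpp5d). Fcer2a is not related to the others in structure. It is a C-type lectin, best known on B cells, where interleukin 4 induces it. In mouse bone marrow, antibodies that bind Fcgr3 and Fcgr2b together (CD16/32) separate granulocyte and monocyte progenitors from other progenitors.

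Fcgr2b, Fcgr3 and Fcgr4 are neighbours on chromosome 1, Fcgr1 lies on chromosome 3 and Fcer2a on chromosome 8. Because the 3 neighbours were lower together and Fcer2a was higher, the 180 bases before their start sites are shown, with Fcgr1 for comparison. The sequences are those of RefSeq on GRCm38.p6, which lists 2 starts for Fcgr3, of which the first is printed, and 3 for Fcer2a, of which 2 are printed. The Fcer2a start labelled downstream here is the middle one. The third, furthest downstream, is not printed and had no match to any motif searched. The 250 bases before each start were searched on both strands for 5 motifs, and capitals mark every match in the printed part.
Fcgr3, chr1:171059404-171059583, minus strand: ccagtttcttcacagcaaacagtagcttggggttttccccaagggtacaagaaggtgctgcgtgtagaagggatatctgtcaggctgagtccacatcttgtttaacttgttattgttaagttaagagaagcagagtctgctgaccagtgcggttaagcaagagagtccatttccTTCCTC
Fcgr4, chr1:171018746-171018925, plus strand: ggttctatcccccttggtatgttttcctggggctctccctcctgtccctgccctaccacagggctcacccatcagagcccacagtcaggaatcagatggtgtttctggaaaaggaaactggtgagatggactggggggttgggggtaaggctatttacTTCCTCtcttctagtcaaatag
Fcgr2b, chr1:170976072-170976251, minus strand: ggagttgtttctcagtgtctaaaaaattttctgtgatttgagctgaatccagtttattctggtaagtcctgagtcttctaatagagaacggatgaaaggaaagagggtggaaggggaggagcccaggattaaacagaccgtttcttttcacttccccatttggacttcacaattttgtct
Fcgr1, chr3:96293970-96294149, minus strand: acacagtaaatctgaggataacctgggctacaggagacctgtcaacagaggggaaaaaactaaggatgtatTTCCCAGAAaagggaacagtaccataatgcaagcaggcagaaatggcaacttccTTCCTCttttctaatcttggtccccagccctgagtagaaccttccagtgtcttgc
Fcer2a (upstream start), chr8:3694175-3694354, minus strand: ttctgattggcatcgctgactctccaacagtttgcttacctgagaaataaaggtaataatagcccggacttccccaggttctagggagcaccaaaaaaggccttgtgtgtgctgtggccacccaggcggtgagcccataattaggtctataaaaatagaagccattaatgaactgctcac
Fcer2a (downstream start), chr8:3690862-3691041, minus strand: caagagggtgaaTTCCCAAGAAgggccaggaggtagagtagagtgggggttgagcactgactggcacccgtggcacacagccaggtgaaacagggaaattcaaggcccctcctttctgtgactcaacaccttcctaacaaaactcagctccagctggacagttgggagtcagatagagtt
The core of sites for PU.1, the ETS factor of myeloid cells, was searched as GAGGAA; it is the reverse complement that stands in the printed sequences. It occurred 1 time each before Fcgr3, Fcgr4 and Fcgr1, 6 to 1, 22 to 17 and 55 to 50 bases from the start, and not before Fcgr2b, Fcer2a or Fcgrt in this window. Of 32851 RefSeq windows of this length 23.3% hold it. TTCNNNGAA, a site form of STAT factors, matched only before Fcgr1 among the 6 genes, as TTCCCAGAA at 109 to 101 bases (7.02% of windows). The STAT6-type site, TTC and GAA with 4 bases between them, matched only before the downstream start of Fcer2a that is printed here, as TTCCCAAGAA at 168 to 159 bases (5.85% of windows). The letters AGATAA, which resemble the sites of the first EVI1 finger domain (9.99% of windows), matched before none of the 6 genes. The same held for GAAGATGAG, described for the second domain (0.347% of windows). GAGGAA does not overlap any other match here. A match describes letters only, and binding was not measured.

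The arrays were comparable in scale, with medians between 7.24 and 7.31 on the deposited log2 scale. Between arrays of a group, r over genes was 0.976 to 0.990, and between arrays of different groups 0.942 to 0.959. The Mecom probe set showed no higher level with the EVI1 label, at 6.39, 7.53 and 6.86 in EGFP replicates 1 to 3 against 6.29, 6.18 and 6.49 in EVI1 replicates 1 to 3 (log2 difference -0.60 ± 0.26 SE, limma adjusted p = 0.166). Both group means were under the floor used here, and the gene has 2 probe sets, of which the brighter is given. Leaving out single arrays moved the Mecom difference between -0.87 without EGFP replicate 1 (limma adjusted p = 0.0306) and -0.30 without EGFP replicate 2 (0.279). It was not established whether this probe set detects the vector's transcript, so groups are named by their labels and every direction is that of the labels. For the labelled cell type, the progenitor markers Kit (9.23 ± 0.06 SD in EGFP, 8.62 ± 0.24 in EVI1) and Cd34 (10.95 ± 0.25 and 8.49 ± 0.35) lay above the level used here as a floor. That level is the 95th percentile of the group means of 1027 olfactory receptor genes, 6.95 in EGFP and 6.99 in EVI1, since these genes are not thought to be active in blood cells. Both Kit (-0.61, limma adjusted p = 0.0160) and Cd34 (-2.45, 0.000201) fell. Markers of more mature cells were brighter still in EGFP, such as Lyz2 (13.22), S100a9 (12.61) and Cpa3 (12.47). Kit and Cd34 thus do not show how mature the cells were.

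Of the activating receptors, Fcgr3 was much lower in the EVI1 arrays, Fcgr4 was lower to below that floor, and Fcgr1 was only slightly lower. Fcgr3 (gene 14131) read 10.56, 9.77 and 9.89 in EGFP replicates 1 to 3 and 7.46, 7.31 and 6.82 in EVI1 replicates 1 to 3. Every EGFP array was high and every EVI1 array low, without overlap, and EVI1 replicate 3 was the lowest and under the floor. The log2 difference of Fcgr3 was -2.88 ± 0.24 (SE, n = 3 arrays per group), a 7.34-fold lower level. Of the 19937 genes only 10 had a more negative difference. In bulk RNA, fewer cells of a type and less RNA per cell cannot be told apart.

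Fcgr4 (gene 246256), a receptor of monocytes, macrophages and neutrophils, read 7.96, 7.92 and 7.41 in the EGFP arrays, against 6.14, 5.77 and 5.93 in the EVI1 arrays. The groups did not overlap, and the 3 EVI1 values were under the floor, so the size of this difference is uncertain. It was -1.82 ± 0.17 (SE), 3.52-fold. Fcgr1 (gene 14129) read 8.39, 8.18 and 8.23 in the EGFP arrays, against 8.17, 7.72 and 7.79 in the EVI1 arrays. Its groups almost met, since EVI1 replicate 1 lay just under EGFP replicate 2. The difference of -0.37 ± 0.14 (SE) is 1.30-fold, and 2564 genes had a more negative one. Without EVI1 replicate 1 it was -0.51.

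The inhibitory receptor Fcgr2b was lower as well. Fcgr2b (gene 14130) read 9.93, 9.57 and 9.71 in the EGFP arrays, against 7.83, 7.49 and 7.43 in the EVI1 arrays, a difference of -2.15 ± 0.15 (SE), 4.45-fold. The groups were far apart compared with the spread within either, with SDs of 0.18 and 0.22, and all 6 values stayed above the floor. Fcgr2b and Fcgr3 have closely similar extracellular domains, and whether a probe set of either reads the transcript of the other was not tested.

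Fcer2a was higher in the EVI1 arrays, with a level at the floor in EGFP. Fcer2a (gene 14128) read 6.34, 6.21 and 6.23 in the EGFP arrays, all under the floor, against 9.99, 10.23 and 10.81 in the EVI1 arrays. The difference was 4.08 ± 0.20 (SE), 16.9-fold, and its size is uncertain because the EGFP level is at the floor. The spread of Fcer2a was wider in EVI1 (SD 0.42) than in EGFP (0.07), and EVI1 replicate 3, the lowest for Fcgr3, was the highest for Fcer2a.

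All 5 measured members had groups that did not overlap, as did 32.6% of all genes. The members were chosen from this contrast, so nothing is read from this count.

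**Figure D1:**
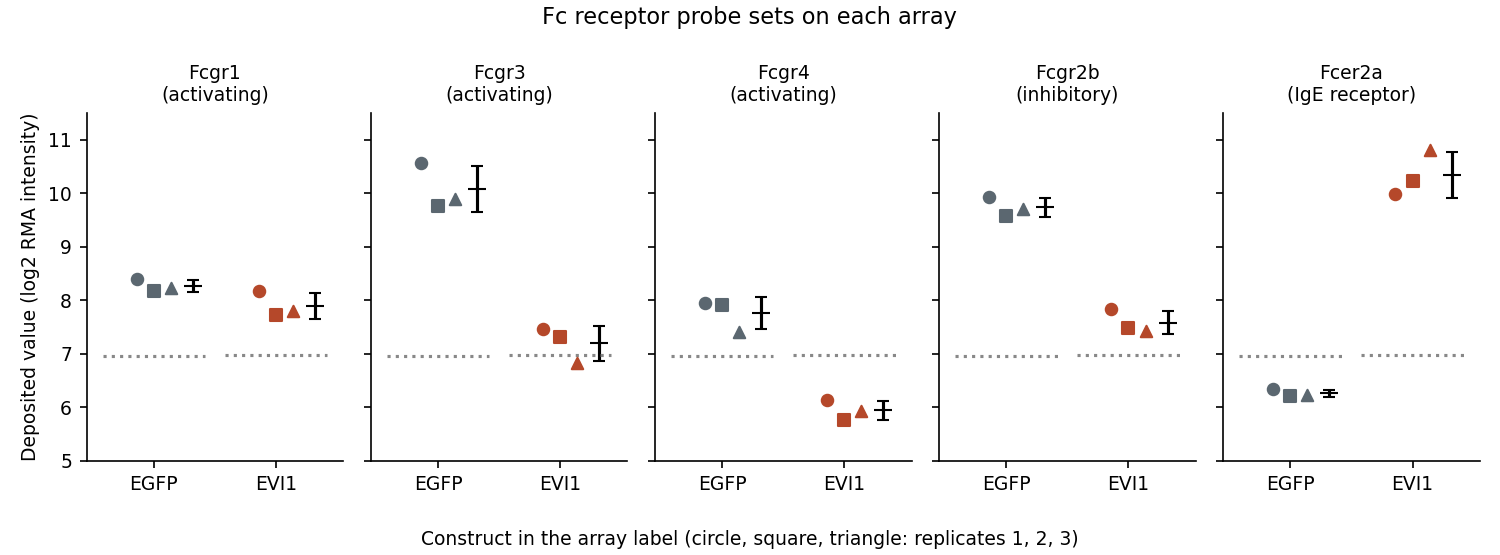
Deposited log2 RMA intensity of the 5 measured Fc receptor genes on each array, by construct (marker shapes are replicate numbers; black bars are the group mean ± SD, n = 3; dotted lines are the floor from olfactory receptor genes, 6.95 for EGFP and 6.99 for EVI1). Fcgr3, Fcgr4 and Fcgr2b are lower in all EVI1 arrays, Fcgr1 is only slightly lower, and Fcer2a goes from 6.26 to 10.34 on average.

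The labels do not say that arrays of the same replicate number belong together. Deviations of same-numbered arrays correlated positively in all 3 pairs (r = 0.491, 0.269 and 0.197), the highest values of any pairing. Of the other pairings only EGFP replicate 2 with EVI1 replicate 3 was positive (r = 0.078). The values thus go with pairing by number, but the labels do not state it. The main fit leaves pairing out, and differences within a number are given as a description. For Fcgr2b they were -2.10, -2.08 and -2.28 in replicates 1, 2 and 3, the narrowest range relative to its size. For Fcgr3 they were -3.11, -2.46 and -3.06, and for Fcgr4 -1.82, -2.15 and -1.48. Replicate 2 had the smallest difference for Fcgr3 and the largest for Fcgr4. Fcgr1 differed by -0.22, -0.46 and -0.44, and Fcer2a by 3.65, 4.02 and 4.58. Every member had the same sign in all 3 pairs, which follows from groups that do not overlap, so nothing is read from it.

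**Figure D2:**
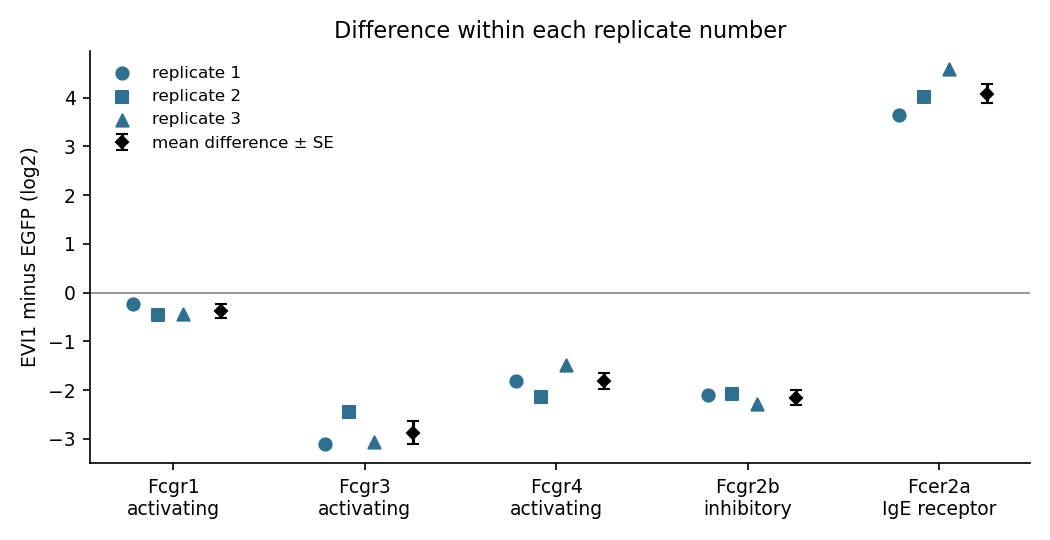
EVI1 minus EGFP log2 difference of each measured Fc receptor gene within each replicate number (blue markers), with the mean difference ± SE from the fit without pairing (black). All 3 markers of a gene lie on the same side of 0, as non-overlapping groups require, between -3.11 for Fcgr3 and 4.58 for Fcer2a.

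The balance of activating against inhibitory receptors was described as the log2 difference of each activating gene to Fcgr2b on the same array. Only its change between groups can be read, because the 2 probe sets have no common scale. Fcgr3 minus Fcgr2b was 0.63, 0.20 and 0.18 in the EGFP arrays, against -0.37, -0.18 and -0.60 in the EVI1 arrays. Relative to Fcgr2b, Fcgr3 was thus lower in every EVI1 array, with a change of -0.72 ± 0.19 (SE). The size of this change is uncertain. Fcgr3 was under the floor on EVI1 replicate 3, which gave the lowest value, and cross-reading between these probe sets was not tested. Fcgr1 minus Fcgr2b was -1.54, -1.39 and -1.48 in the EGFP arrays, against 0.34, 0.23 and 0.37 in the EVI1 arrays. This change of 1.78 ± 0.06 (SE) was the most even of the 3, with SDs of 0.07 in both groups. Fcgr4 minus Fcgr2b was -1.97, -1.65 and -2.30 in the EGFP arrays, against -1.69, -1.71 and -1.50 in the EVI1 arrays, so the groups overlapped. Its change was 0.34 ± 0.20 (SE), between 0.18 without EGFP replicate 3 and 0.50 without EGFP replicate 2. Because Fcgr4 was under the floor on all 3 EVI1 arrays, its change against Fcgr2b cannot be read.

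The position of the members was not part of their choice, and their neighbours were read from the fit of all genes. Around Fcgr2b, Fcgr4 and Fcgr3, none of the 10 nearest measured protein-coding genes, 5 on each side, rose and 1 fell, where 9.06% of all genes rose and 9.18% fell (18.2% in all). That gene was Atf6, a sensor of unfolded proteins (-0.39, limma adjusted p = 0.0402), and its call was lost without any single array, at adjusted p = 0.0542 to 0.130. The call of Atf6 was also lost with trend and robust estimation (0.0711). The 3 receptors were chosen with their large differences known, so nothing is read from their being larger than those of the neighbours. Differences of the 10 neighbours lay between -0.73 and 0.15. The -0.73 was that of the phosphatase Dusp12 (adjusted p = 0.119, and 0.00965 with a replicate block). The nearest genes, the Fc receptor-like Fcrla (-0.04) and Fcrlb (0.07) before the cluster and Cfap126, a cilia protein (-0.25), and Sdhc, a subunit of succinate dehydrogenase (-0.01), after it, did not pass the test.

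Beside Fcer2a the gene next to it, Clec4g, another C-type lectin, rose by 1.06 ± 0.12 (SE, limma adjusted p = 0.000689). With the mean of its 2 probe sets the difference was 0.64. The other neighbour, Trappc5, a part of a vesicle tethering complex, rose by 0.35 (adjusted p = 0.0378, lost without any single array at 0.0694 to 0.109). Its call was also lost with trend and robust estimation (0.0792). The lectin genes Cd209a (0.39), Cd209e (0.13), Cd209d (0.02) and Cd209b (-0.04) further along did not pass. With a replicate block 2 more neighbours of Fcer2a were called, Mcemp1, a membrane protein of mast cells (-1.20, adjusted p = 0.000975), and Stxbp2, a secretion factor (0.69, 0.0276). Around Fcgr1 2 of 10 neighbours rose and 3 fell (9.06% and 9.18% of all genes), most of them histone genes, whose near-identical copies may share probes: H2bc18 (-0.77), H4c14 (-0.77) and H3c15 (-1.87, to an EVI1 mean under the floor) fell, H2bc21 rose by 1.06 and Txnip, which binds thioredoxin, rose by 1.44. With a replicate block Bola1 was also called there (-0.41, adjusted p = 0.0240). Around Fcgrt 3 of 10 neighbours rose (9.06% of all genes), the GTPase Rras (1.57), the cytokine Flt3l (0.57) and Rcn3, a calcium-binding protein of the endoplasmic reticulum (0.75), and none fell. The limma call of Rcn3 was lost without EGFP replicate 3 (adjusted p = 0.0619), EVI1 replicate 1 (0.0597) or EVI1 replicate 2 (0.0642).

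**Figure D3:**
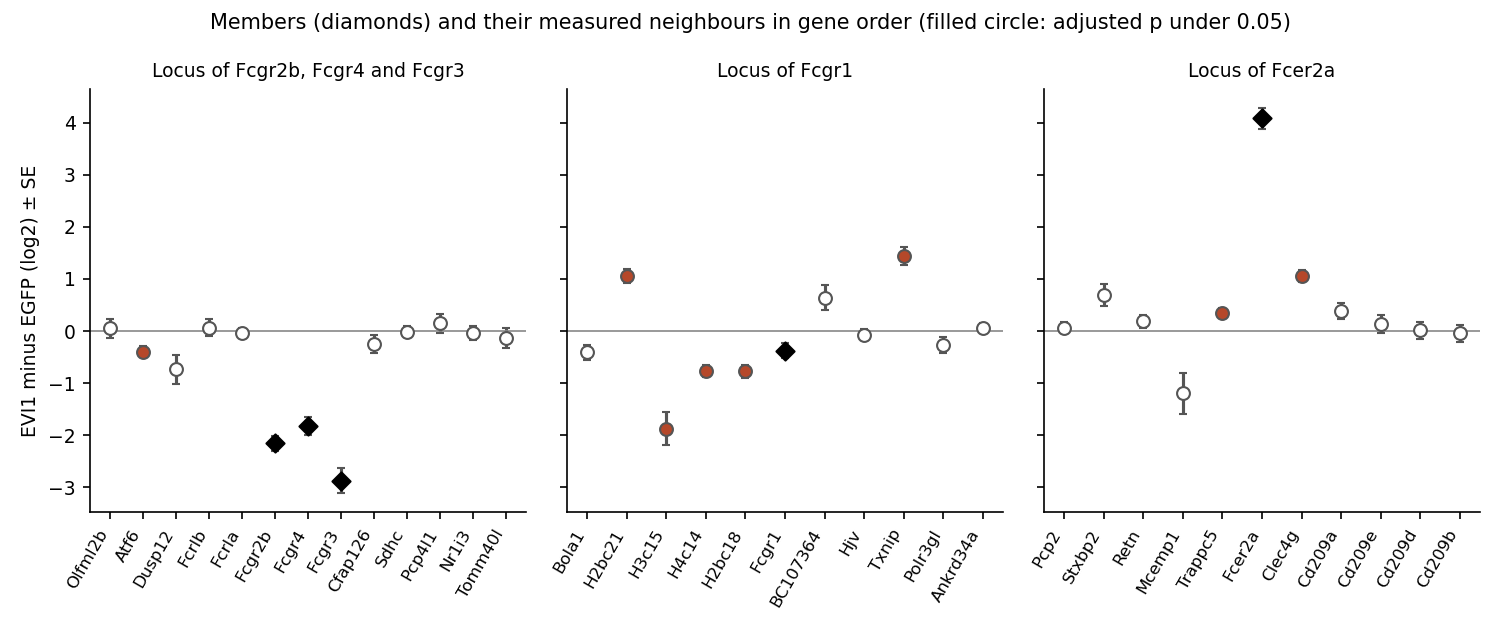
EVI1 minus EGFP log2 difference ± SE of the members (black diamonds) and of the 5 measured protein-coding genes on each side, in gene order; filled circles passed at an adjusted p under 0.05 by limma. Around Fcgr2b, Fcgr4 and Fcgr3 the neighbours stay between -0.73 and 0.15, while beside Fcer2a the gene Clec4g is higher by 1.06.

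Genes that the members need or resemble were taken from lists of general knowledge, and each list's counts stand against 9.06% of all genes that rose and 9.18% that fell. Of 11 measured other receptors for immunoglobulin, 2 fell, 1 rose and 8 did not pass, with a median log2 difference of -0.01, against 0.01 for all genes. Fcer1a, the chain of the high-affinity IgE receptor that binds the antibody, fell, at 9.96, 11.29 and 10.10 in EGFP replicates 1 to 3 against 8.44, 9.58 and 8.76 in EVI1 replicates 1 to 3 (-1.52 ± 0.39 SE, limma adjusted p = 0.0288). The arrays of replicate 2 were the highest of their group in both cases. Its call was lost without EGFP replicate 3 (0.0519), EVI1 replicate 1 (0.0923) or EVI1 replicate 3 (0.119). Trim21, a cytosolic antibody receptor, rose by 1.53 ± 0.21 (SE, adjusted p = 0.00167). Fcrl1 fell by 0.49 with both group means under the floor, and was lost without EVI1 replicate 1 (0.0671) or EVI1 replicate 2 (0.0581). In all, 8 of the 11 were under the floor in both groups, among them Fcmr, Pigr and Fcamr, receptors for immunoglobulin M or A.

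Of 5 chains that pass on signals of such receptors 1 fell and none rose. Fcer1g, which Fcgr1, Fcgr3 and Fcgr4 require, read 12.52, 11.88 and 12.29 in the EGFP arrays, against 12.67, 12.35 and 12.31 in the EVI1 arrays. The groups overlapped, and the difference of 0.21 ± 0.18 (SE) did not pass (limma adjusted p = 0.531). Ms4a2, the beta chain of the high-affinity IgE receptor, was the chain that fell, from 11.01, 11.39 and 11.14 to 9.16, 8.58 and 8.43 (-2.46 ± 0.20 SE, adjusted p = 0.000204). Tyrobp (DAP12, 0.54, adjusted p = 0.0575), Cd247 (CD3 zeta, 0.50, 0.0591) and Hcst (DAP10, -0.47, 0.101) did not pass, but all 3 were called with a replicate block (0.0169, 0.0168 and 0.0218). Tyrobp was also called without EGFP replicate 1 (0.0443) or EGFP replicate 2 (0.0447), and Hcst without EGFP replicate 2 (0.0195). Array weights called Tyrobp (0.0197) and Hcst (0.0479), and trend and robust estimation called Tyrobp (0.0430). Both filters on dim genes called Tyrobp (0.0487 and 0.0433) and Cd247 (0.0498 and 0.0448).

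Among 8 partners of CD23 and of the neonatal Fc receptor 3 rose and 2 fell. Adam10, the protease that sheds CD23, rose by 0.49 ± 0.13 (SE, limma adjusted p = 0.0324), a call that was lost without each array but EGFP replicate 1 (0.0571 to 0.111). Of the integrins that CD23 binds, Itgav (1.67 ± 0.14) and Itgb3 (1.34 ± 0.15), which form a pair, rose, and Itgax (CD11c, -1.19 ± 0.17) and its partner Itgb2 (CD18, -1.59 ± 0.20) fell, with the EVI1 mean of Itgax under the floor. Itgam (CD11b, -1.03 ± 0.34) did not pass (adjusted p = 0.0792), but was called with a replicate block (0.00238) and without EGFP replicate 3 (0.0441) or EVI1 replicate 1 (0.0249). Cr2, the complement receptor that binds CD23, was under the floor in both groups, and B2m, the light chain that Fcgrt requires, differed by 0.16 ± 0.10 without passing (0.337).

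**Figure D4:**
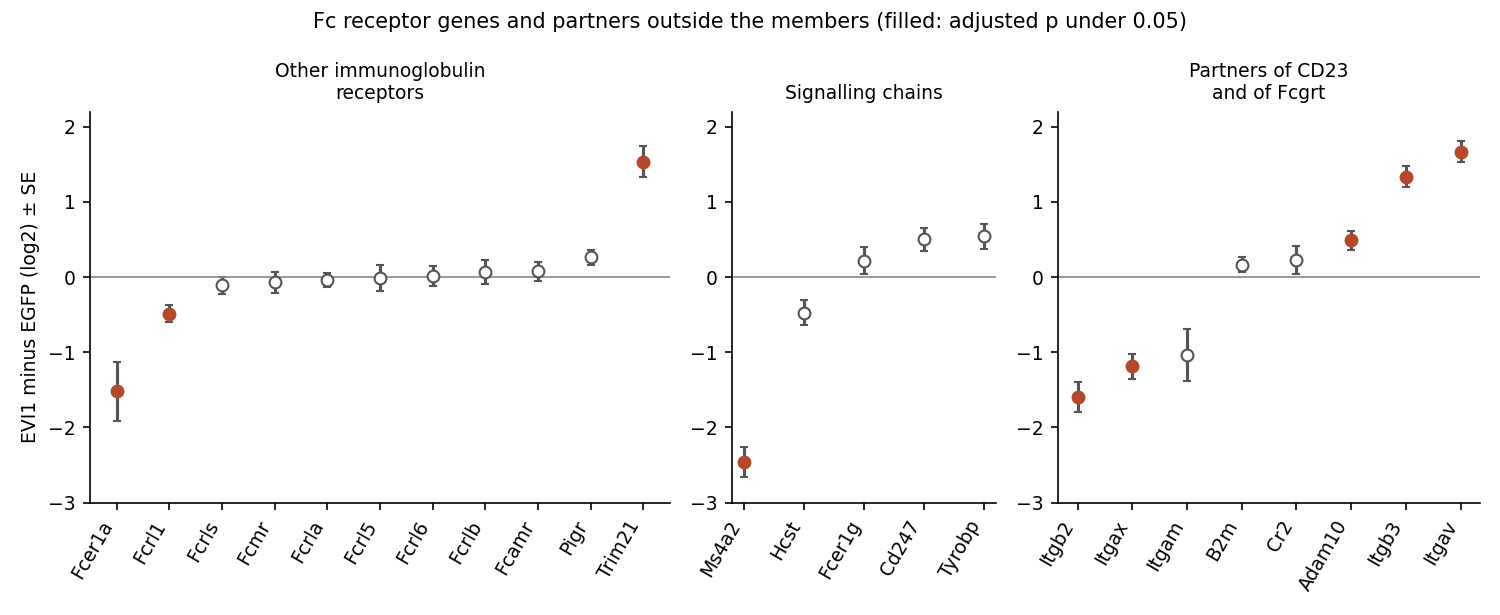
EVI1 minus EGFP log2 difference ± SE (n = 3 arrays per group) of other immunoglobulin receptors, signalling chains and partners; filled points passed at an adjusted p under 0.05 by limma. Ms4a2 (-2.46) is the lowest and Itgav (1.67) the highest, while the common gamma chain Fcer1g is at 0.21 and unfilled.

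Genes downstream of the receptors were counted by branch. Of 27 measured activating signalling genes 6 fell (22.2%, against 9.18% of all genes) and 18 did not pass (median -0.09). The 3 that rose (11.1%) were near the share of all genes, 9.06%, so nothing is read from them. The adaptors Lat (-1.39 ± 0.19) and Lcp2 (SLP-76, -1.18 ± 0.15), the kinase Btk (-0.93 ± 0.11) and the regulatory subunit Pik3r1 (-0.61 ± 0.10) fell. Syk, the kinase recruited by the ITAM, differed by 0.10 ± 0.14 with overlapping groups (limma adjusted p = 0.742). The count of rises was 1 without EGFP replicate 1, without EGFP replicate 3 or without any of the EVI1 arrays.

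Of 15 inhibitory signalling genes 4 rose and 4 fell (26.7% each) while 7 did not pass (median 0.27). The lipid phosphatase Inppl1 (SHIP2, 0.97 ± 0.11), the tyrosine phosphatase Ptpn6 (SHP-1, 0.81 ± 0.13) and the ubiquitin ligase Cblb (0.83 ± 0.11) rose, and Rasal3, a regulator of Ras (-0.64 ± 0.11), fell. Inpp5d, the phosphatase that Fcgr2b recruits, read 10.21, 10.50 and 9.93 in the EGFP arrays, against 9.99, 9.68 and 9.69 in the EVI1 arrays, a difference of -0.43 ± 0.16 (SE) that did not pass (adjusted p = 0.125). The count of falls was 2 without EGFP replicate 1 or EVI1 replicate 2 and 1 without EGFP replicate 3 or EVI1 replicate 3.

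Other receptors listed as bearing ITIMs were lower where they changed. The list comes from general knowledge, and the motif was not checked in the mouse proteins, that of Cd33 included. Of 21 measured, 7 fell (33.3%, against 9.18% of all genes), none rose and 14 did not pass, with a median of -0.40; with a replicate block 9 fell and Pirb rose (0.58, adjusted p = 0.0128). Cd33, a sialic acid-binding receptor, went from 11.51, 10.64 and 10.44 to 8.14, 7.58 and 7.68. It fell by 3.07 ± 0.28 (SE, limma adjusted p = 0.000315), and the groups did not overlap. Siglece of the same family (-1.63 ± 0.17), the mast cell receptor Milr1 (-1.82 ± 0.30) and the lymphocyte receptor Btla (-0.80 ± 0.14) fell too, with EVI1 means of Siglece and Btla under the floor. Among 24 genes of the actin and phagocytosis machinery 7 rose, 1 fell and 16 did not pass (median 0.09). Marcks, which links actin to the membrane (1.89 ± 0.12), gelsolin (Gsn, 1.04 ± 0.13) and Vasp, which promotes actin assembly (0.56 ± 0.11), rose, and the phospholipase Pla2g4a (-0.61 ± 0.10) fell. The rises numbered 3 without EGFP replicate 3 or without any of the EVI1 arrays, and 5 without EGFP replicate 1 or EGFP replicate 2.

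Factors known to act on Fc receptor genes were examined next. Of 25 measured transcription factors and cytokine receptors 7 rose, 3 fell and 15 did not pass, with a median of 0.25. Spi1, which encodes PU.1, rose from 9.72, 9.40 and 9.84 to 10.17, 10.40 and 10.57 (0.73 ± 0.15 SE, limma adjusted p = 0.0128). Its relatives Spic (4.58 ± 0.42) and Spib (1.80 ± 0.18) rose as well, and the EGFP mean of Spib was under the floor. The interferon regulatory factor Irf1 rose by 2.31 ± 0.20 and the common beta chain Csf2rb of cytokine receptors fell by 2.08 ± 0.22. Of the interleukin 4 pathway known to induce CD23, the receptor Il4ra (-0.02 ± 0.13, adjusted p = 0.954) and the factor Stat6 (0.31 ± 0.12, 0.115) did not pass. Notch2 (0.00 ± 0.12) and Pax5 (-0.02 ± 0.11), which act on CD23 in B cells, did not pass either, whereas Rbpj, the DNA-binding partner of Notch receptors, fell by 0.84 ± 0.14 (SE, limma adjusted p = 0.00466).

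Fcgr1 is known as a gene induced by interferon gamma. Of 17 other measured genes of that response 10 rose (58.8%, against 9.06% of all genes) and 7 did not pass, with no fall and a median of 1.24. Rises numbered 7 to 10 when 1 array was left out. Which interferon, if any, acted on these genes was not tested. The guanylate-binding proteins Gbp5 (3.04 ± 0.24) and Gbp4 (2.30 ± 0.28), the GTPase Iigp1 (3.35 ± 0.45) and the chemokine Cxcl9 (2.29 ± 0.24) rose, all 4 from EGFP means under the floor, so these sizes are uncertain. The transactivator Ciita (-0.26), the ligand Cd274 (-0.27), the receptor Cd40 (-0.08) and the signalling inhibitor Socs1 (-0.01) of the same list did not pass, and Fcgr1 was lower by 0.37 in the EVI1 arrays. Mean levels of the list were 8.13 to 8.25 in the EGFP arrays, against 8.95 to 9.81 in the EVI1 arrays, while Fcgr1 was at 8.18 to 8.39 and 7.72 to 8.17.

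Markers of cells that carry these receptors moved too. Of 13 granulocyte and monocyte progenitor genes 9 fell (69.2%, against 9.18% of all genes) and 4 did not pass, with no rise, and the mean of the list was 10.38 to 10.50 in the EGFP arrays, against 9.29 to 9.50 in the EVI1 arrays. Cd34 (-2.45 ± 0.20), neutrophil elastase (Elane, -2.29 ± 0.18), cathepsin G (Ctsg, -2.55 ± 0.23) and Ms4a3 (-2.32 ± 0.22) were among them, all above the floor in both groups. Falls in this list numbered 6 to 8 when 1 array was left out. With a replicate block Csf3r of this list was called as higher (0.52, limma adjusted p = 0.0315). The list also had 1 rise with array weights and 1 without genes under the median. Of 13 mast cell and basophil markers 8 fell (61.5%) and none rose, with list means of 9.19 to 9.63 and 8.17 to 8.30. With 1 array left out, 6 to 8 of these markers fell. The carboxypeptidase Cpa3 (-1.27 ± 0.17), Ms4a2, histidine decarboxylase (Hdc, -2.29 ± 0.30) and Tph1, which makes serotonin (-3.20 ± 0.29), had the smallest p-values of that list. The EVI1 mean of Tph1 was under the floor, and Tpsb2, Tpsab1 and Mcpt4 were under the floor in both groups. Their part in the lower Fcgr2b, Fcgr3 and Fcgr4 was not tested.

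Natural killer cells carry Fcgr3, but 8 of their 12 measured markers were under the floor in both groups, among them Ncr1, Klrb1c and Eomes. Of the 12, 4 fell (33.3%, against 9.18% of all genes) and none rose (2 fell without EGFP replicate 1 or EVI1 replicate 3), with list means of 7.11 to 7.18 and 6.44 to 6.65. Nkg7 (-3.06 ± 0.16) and Klrd1 (-1.76 ± 0.24, with the EVI1 mean under the floor) fell, as did the granzyme Gzmb (-1.24 ± 0.28, lost without EGFP replicate 1 at limma adjusted p = 0.0513 and without EVI1 replicate 3 at 0.0507). Klrk1 (-0.44) passed narrowly (0.0490) with both means under the floor, and was lost without any array but EGFP replicate 3 (0.0930 to 0.150). It was also lost with further quantile normalisation (0.0785) and with array weights (0.0712).

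B cells are the best known carriers of Fcer2a. Of 12 measured B cell markers 1 rose (8.33%, against 9.06% of all genes) and 11 did not pass, with no fall. The share that rose is near that of all genes, so nothing is read from it. List means were 6.67 to 6.74 in the EGFP arrays, against 6.77 to 6.86 in the EVI1 arrays. Cd79a, Ms4a1 (CD20), Ebf1, Blk, Fcrla, Pou2af1 and Rag1 were under the floor in both groups. The gene that rose was Cd79b, a chain of the B cell receptor complex, from 8.46, 8.75 and 8.75 to 9.41, 10.19 and 10.02 (1.22 ± 0.20 SE, limma adjusted p = 0.00441).

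Monocytes and macrophages carry Fcgr1, Fcgr4 and Fcgr2b, and their 14 measured markers went both ways, with 5 up, 3 down and a median of 0.06. The receptor Mertk for dying cells (2.91 ± 0.21), the lectin Clec4n (2.14 ± 0.35) and the lysosomal protein Cd68 (1.16 ± 0.19) rose, and the chemokine receptor Ccr2 (-2.36 ± 0.40) fell. The EGFP mean of Mertk was under the floor. The list means were 8.87 to 9.31 and 9.17 to 9.49, and Cd5l, Vcam1 and Marco were under the floor in both groups. Falls numbered 5 with a replicate block and 1 without EGFP replicate 1, EVI1 replicate 2 or EVI1 replicate 3. Of 12 neutrophil markers 2 rose, Ly6g (2.59 ± 0.36) and Mmp9 (1.92 ± 0.27), and 2 fell, Ngp (-2.87 ± 0.46) and Mmp8 (-3.45 ± 0.61), or 5 with a replicate block; list means were 9.14 to 9.94 and 8.75 to 9.37, and the EGFP means of Ly6g and Mmp9 were under the floor.

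Of 12 dendritic cell markers 4 fell (33.3%, against 9.18% of all genes) and 1 rose, at list means of 8.28 to 8.72 and 8.05 to 8.32. Itgax, the antigen-presenting molecule H2-Ab1 (-0.77 ± 0.18) and the chemokine receptor Ccr7 (-1.22 ± 0.30) fell and Bst2, an antiviral membrane protein (0.95 ± 0.19), rose. The limma call of H2-Ab1 was lost without EGFP replicate 3 or EVI1 replicate 1 or 3 (adjusted p = 0.0632 to 0.0801), and that of Ccr7 without any EVI1 array (0.0603 to 0.0823). The count of falls was 2 without EGFP replicate 3 or EVI1 replicate 2 and 1 without EVI1 replicate 1 or EVI1 replicate 3. None of 6 eosinophil markers passed by limma, although 3 had an unadjusted p under 0.05 and 4 passed with a replicate block, Epx (-0.72, adjusted p = 0.00523), Prg2 (-0.83, 0.0214), Prg3 (-0.51, 0.0255) and Siglecf (-0.34, 0.0430); Il5ra (-0.09) and Ccr3 (0.10) were under the floor. Of 7 erythroid and megakaryocyte markers Slc4a1 (1.45 ± 0.21), Epor (0.46) and Vwf (0.38) rose and Pf4 fell by 1.41 ± 0.22. The rises numbered 1 if either EGFP replicate 1 or 3, or EVI1 replicate 1 or 3, was left out. Epor was lost in those same 4 cases (limma adjusted p = 0.0891 to 0.110), and Vwf in these and without EVI1 replicate 2 (0.0730 to 0.109). What part any of these lists has in the levels of the Fc receptors was not tested.

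**Figure D5:**
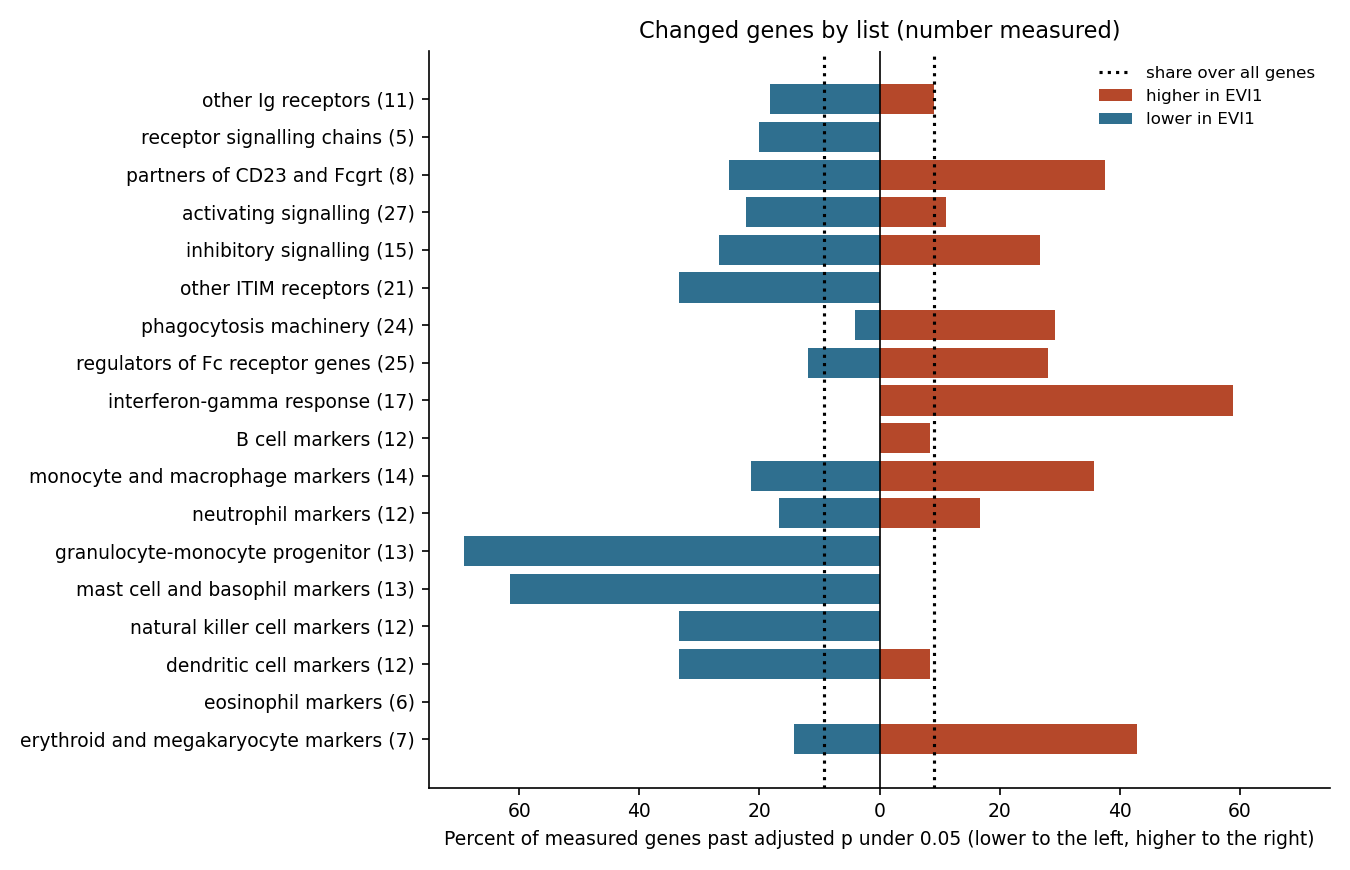
Percent of the measured genes of each list that passed at an adjusted p under 0.05 by limma, higher in EVI1 to the right and lower to the left, with the number measured in parentheses; dotted lines mark the shares over all genes, 9.06% higher and 9.18% lower. Interferon-gamma response genes reach 58.8% higher, and granulocyte and monocyte progenitor genes 69.2% lower.

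The genes most like each member over the 6 arrays were named by Pearson correlation, as a description. The 6 points fall into 2 groups, so a high r follows mostly from the difference between them. For Fcgr2b these were Trem3, a myeloid receptor (r = 0.999), Atm, a kinase of DNA damage (0.999), and I830077J02Rik (0.998), and 7.04% of all genes reached an r above 0.9. For Fcgr3 they were Endod1 (0.999), Atr, another damage kinase (0.999), and Uxs1 (0.998), and for Fcgr4 they were Zfp947 (0.999), Serpinb2, an inhibitor of plasminogen activators (0.998), and Lrp12 (0.997). For Fcer2a they were Vamp5 (0.999), the cathepsin Ctsj (0.999) and the transporter Slc6a20a (0.998). Fcgr1 had fewer genes like it, with 1.54% above 0.9, led by Mir1839 (0.997), Nfam1, a receptor with an ITAM (0.988), and Lrrc18 (0.985).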

How the data were processed

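Expression was measured on 6 single-colour Affymetrix arrays. The deposited values are log2 intensities that the authors made by RMA (background correction, quantile normalisation between arrays and probe summary), per the submitters' processing notes. Because RMA equalises the distributions, a change in total RNA per cell would not show. Arrays have no read depth; their number limits the precision.

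Of 34760 probe sets, 21640 had 1 gene symbol, 1321 several and 11799 are unnamed here. Each of 19937 genes was represented by its probe set with the highest mean, without a filter. The 3 EVI1 and 3 EGFP arrays were compared with limma 3.58.1 under R 4.3.3 (linear model with moderated variances, two-sided), with Benjamini-Hochberg adjustment over all genes and a threshold of 0.05; SEs are from that fit, or from the group variances for differences to Fcgr2b. The fit was tested on simulated data. "Rose" and "fell" are used only past the threshold.

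The members and lists were chosen with earlier results of these data known, so members carry no p-value and lists are described by counts and medians without a set test. Named genes are the members, Mecom, up to 4 passing genes of smallest p per list, all genes of lists of 8 or fewer, passing neighbours and the 3 genes most correlated with each member; others, such as Syk, Inpp5d, Stat6, Il4ra, Notch2, Pax5, Rbpj, Ciita, Cd274, Cd40, Socs1, Spi1, Pirb, Kit, Dusp12 and the neighbours that did not pass, were chosen after their values were seen. Gene order and promoters come from RefSeq (GRCm38.p6). A planned comparison of protein sequences was not run.

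Same-numbered arrays deviated together, with r = 0.491, 0.269 and 0.197 for replicates 1, 2 and 3 (deviations from group means across genes), and such pairing comes from the data, since the labels give only the numbers. Alternatives were a replicate block, trend and robust estimation, further quantile normalisation, 2 filters on dim genes, the mean of all probe sets, array weights and leaving out each array.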

Additional observations from a re-analysis of the deposited data

How the results depend on the processing

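No alternative turned the sign of a member. Leaving out 1 array could not do so, because the groups of each member did not overlap. Each member had 1 probe set, so the mean of all probe sets left its values unchanged. Over the alternatives that leave out 1 array, the log2 difference lay between -0.51 and -0.29 for Fcgr1, -2.28 and -2.06 for Fcgr2b, -3.03 and -2.63 for Fcgr3, -1.99 and -1.72 for Fcgr4 and 3.85 and 4.26 for Fcer2a, and relative to Fcgr2b between -0.83 and -0.57 for Fcgr3 and 1.74 and 1.82 for Fcgr1. Counts of changed genes depended on the arrays. Leaving out 1 array gave 1179 to 2037 genes higher and 1110 to 2061 lower in EVI1 (1807 and 1831 with all), with the lowest counts without EVI1 replicate 3. Over the 9 pathway lists it gave 22 to 32 genes higher (35 with all; 22 without EVI1 replicate 3 and 23 without EGFP replicate 3), and over the 9 marker lists 20 to 30 lower (31 with all; 20 without EVI1 replicate 3). With the replicate block 2172 genes were higher and 2189 lower. Beyond the calls given beside their results it added Plcg1, Vav3, Pecam1, Cd200r1, Cfl1, Ifngr2, Adgre1, Cx3cr1, S100a9, Ltf, Cxcr2, Klrb1c, H2-Aa and Cd74. Arpc5 was lost. The added calls went both ways: Ifngr2 was higher in EVI1 (0.58), and the dendritic list, which holds H2-Aa and Cd74, then had 2 higher and 5 lower. The genes that the rule names in the lists, the neighbours that passed and Mecom gave 87 results, with Ms4a2 and Itgax counted in 2 lists each; members, correlated genes and genes chosen after their values were seen are not among them. Of 1111 combinations of these results with an alternative, 1039 kept their side of the threshold, 51 lost the call and 21 gained it. Among combinations with a call in either fit, 0 turned direction. Turns of sign without a call were not counted, as for Il5ra, whose difference lay between -0.246 and 0.003. Levels under that of olfactory receptor genes limit the size of the differences of Fcer2a, Fcgr4 and the other genes marked as under the floor.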
